A study of Mus musculus with 9 samples.

Results

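The genes described here are 10 factors grouped under T cell quiescence and memory: Tcf7, Lef1, Satb1, Foxo1, Foxo3, Foxp1, Bach1, Bach2, Id2 and Id3. The group also takes in Id2, which is linked to effector fates, and Bach1, whose product represses iron and redox genes. All 10 were chosen by name, as the lines of the count table whose Ensembl ID maps to one of these symbols. Each was found among 39017 gene IDs. RNA was measured in CD4+ T cells from lymph nodes of male C57BL/6 mice of unstated age. In the 4 cKO samples (replicates 2, 6, 7 and 8) a floxed Kdm6a allele was combined with CD4-Cre (+/-). In the 5 WT samples (replicates 1, 3, 4, 5 and 9) the same floxed allele was present without Cre (-/-). Kdm6a is X-linked and encodes UTX, a demethylase of histone H3 lysine 27, and CD4-Cre acts in cells that have used the Cd4 promoter, which in mice includes thymic precursors of both CD4 and CD8 T cells. Since Cre presence followed genotype exactly, an effect of Cre itself cannot be told apart from loss of Kdm6a.

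Quiescence in T cells is an active state. TCF1 (the product of Tcf7) and LEF1 are related HMG box factors that bind beta-catenin, and both are high in naive and stem-like memory T cells. FOXO1 enters the nucleus when the kinase AKT is inactive and there turns on genes for survival and lymph node homing, such as Il7r and Klf2. FOXP1 is a forkhead repressor needed for naive T cells to stay quiet, BACH2 restrains effector genes by competing with AP-1 factors at their sites, and the ID proteins block E proteins by forming dimers that cannot bind DNA. On activation, FOXO1 leaves the nucleus and transcripts of several of these factors decline.

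Total counts ran from 20587482 in cKO 7 to 26387488 in WT 9. Kdm6a was at 42.7 CPM ± 1.48 (SD, n = 4) in cKO and 62.7 CPM ± 1.59 (SD, n = 5) in WT, where CPM is counts scaled to a common library total (TMM). The counts cover the whole gene and the floxed exon is not stated. Reads outside the deleted part can therefore remain in the cKO value, which does not show how complete the deletion was. All 9 markers of CD4 T cells were detected, and Cd4 averaged 957 CPM ± 43.6 (SD, n = 4) in cKO and 873 CPM ± 35.6 (SD, n = 5) in WT. The labels do not mention stimulation, while the name of the deposited table contains "stim". Whether each sample is its own mouse is not stated either, and p-values then describe sample spread that may be technical.

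Markers of CD8 T, natural killer and plasma cells were low. In edgeR, 1 of the 2 CD8 T cell markers was higher in cKO, as was the 1 tested natural killer cell marker (log2 1.61). The 1 tested plasma cell marker did not pass. Summed levels of CD8 T cell markers were 15.12 to 19.1 CPM in cKO and 11.9 to 15.08 CPM in WT, those of natural killer cell markers 2.48 to 7.80 CPM in cKO and 0.382 to 1.98 CPM in WT, and those of plasma cell markers 3.33 to 4.60 CPM in cKO and 1.81 to 3.06 CPM in WT. The summed level of the 9 CD4 T cell markers was 3211 to 3588 CPM in cKO and 4028 to 4545 CPM in WT. Of the 9, 2 were higher, 4 lower and 3 did not pass in edgeR, beside 7% of all genes higher and 8.82% lower. Thy1, named after its value was seen, made up most of the difference in that sum. It was at 287 CPM ± 60.2 (SD, n = 4) in cKO and 1048 CPM ± 117 (SD, n = 5) in WT. For each of these 4 lists the genotypes did not overlap, as was so for 15.9% of all genes taken singly. The exact two-sided permutation test gave p = 0.0159 for each, the smallest it allows, and 0.0516 after adjustment over 13 lists. With the other lists as they were, that adjusted value could not be lower however large the differences, so it does not measure their size. The 8 regulatory T cell markers, which activated CD4+ T cells also express in part, summed to 3426 to 4208 CPM in cKO and 4072 to 4779 CPM in WT, with overlap (exact two-sided permutation p = 0.0952, adjusted 0.248). Of these 8, Ikzf2 was higher in cKO, Il2ra was lower and 6 did not pass in edgeR, among them Foxp3, the defining factor of that lineage, at 102 CPM in cKO and 103 CPM in WT (adjusted p = 0.953). Stromal and vessel markers summed to 84.4 to 106 CPM in cKO and 96.6 to 119 CPM in WT, nearly all of it Pecam1. All 4 neutrophil markers were at 0 in every sample. Mitochondrial genes took 2.59% ± 0.138 (SD, n = 4) of counts in cKO and 2.38% ± 0.0572 (SD, n = 5) in WT (two-sided exact permutation test, p = 0.0317). That p was 0.0571 or 0.0714 when cKO 6, 7 or 8 or WT 1, 3, 4 or 5 was omitted. With 1 sample left out, this test can pass 0.05 only if the genotypes separate fully. Any omission that kept both cKO 2, at 2.42%, and WT 9, at 2.46%, therefore had to miss. The part of these markers and of the mitochondrial share in the differences below was not tested. In RNA from many cells together, fewer cells of a type and less RNA per cell cannot be told apart.

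Of the 10 factors, Foxp1 and Bach2 were higher in cKO, Foxo1 and Bach1 were lower, and 6 did not pass the test. The call used the quasi-likelihood F test of edgeR with Benjamini-Hochberg adjusted p below 0.05 over all 14693 genes tested. In that test 15.8% of all genes were called, 7% higher and 8.82% lower, and the 10 factors were not compared with that share by a test. Higher genes were 44.2% of those called, and 54.2% with upper-quartile scaling. By mean CPM, Bach1 stood at percentile 41.5 of the tested genes and the other 9 between 61.2 (Id3) and 99.5 (Satb1). The median log2 difference of the 10 factors was 0.01 and their median absolute difference 0.14, against 0.0012 and 0.11 over all genes. The largest folds of cKO over WT were 1.23 for Bach2 and 0.783 for Bach1. Foxo1, Foxp1 and Bach2 had no overlap between genotypes, as had 15.9% of all genes.

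**Figure D1:**
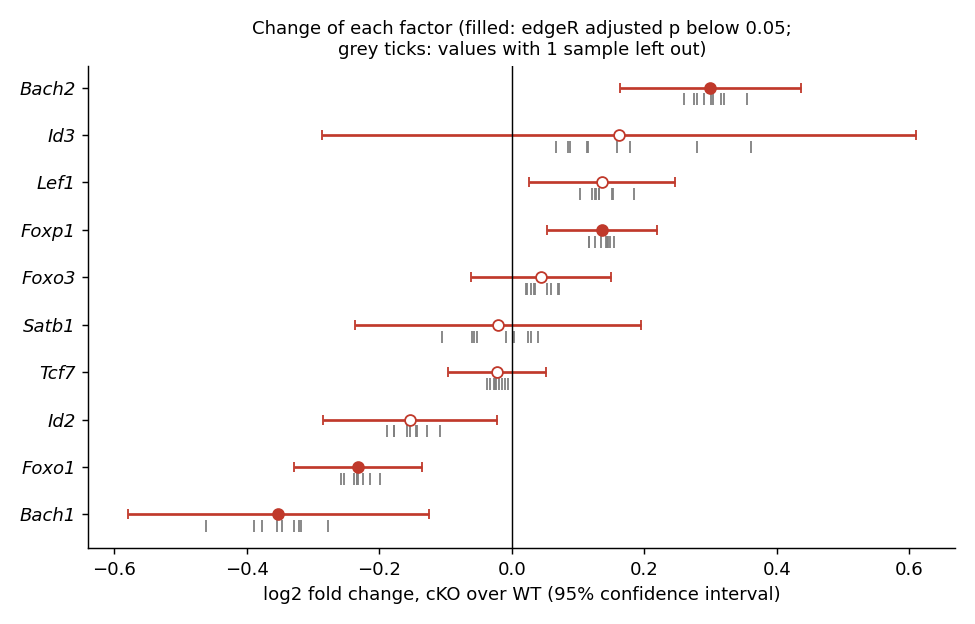
Log2 fold change of each factor, cKO over WT, with its 95% confidence interval from the edgeR fit on 4 cKO and 5 WT samples; filled points have an adjusted p below 0.05 and grey ticks are the values with 1 sample left out. Foxo1 was at -0.23 and Bach2 at 0.30. The ticks of Satb1 fell on both sides of 0, while those of every other factor, called or not, stayed on 1 side.

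Of the HMG box factors, which mark naive and stem-like cells, neither passed the test. Tcf7 (ENSMUSG00000000782, minus strand of chr11:52252371-52283014) had 523, 542, 539 and 540.3 CPM in cKO 2, 6, 7 and 8, against 568, 520.5, 556, 549 and 528 CPM in WT 1, 3, 4, 5 and 9. All 9 samples lay close together and every cKO value fell inside the WT range. Tcf7 differed by -0.02 in log2 (SE 0.03, edgeR adjusted p = 0.699), with a 95% interval of -0.10 to 0.05. Each sample held between 11214 and 14654 Tcf7 counts, and this interval was the narrowest among the 10 factors.

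Lef1 (ENSMUSG00000027985, plus strand of chr3:131110471-131224356) had 447, 377, 423 and 428 CPM in cKO 2, 6, 7 and 8, against 376, 369, 398, 364 and 397 CPM in WT 1, 3, 4, 5 and 9. In cKO 2, 7 and 8 Lef1 was above every WT sample, and cKO 6 lay within the WT range. At 0.14 in log2 (SE 0.05), the difference did not pass (edgeR adjusted p = 0.0887, unadjusted p = 0.0191). Without cKO 6 the difference was 0.18 (adjusted p = 0.0242), and with 1 surrogate variable as covariate it was 0.17 (adjusted p = 0.0361), so the call for Lef1 depended on that library and on that setting. Within each sample, the log2 ratio of Tcf7 to Lef1 was 0.23, 0.53, 0.35 and 0.34 in cKO 2, 6, 7 and 8, against 0.60, 0.50, 0.48, 0.59 and 0.41 in WT 1, 3, 4, 5 and 9, with overlap through cKO 6.

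Satb1 encodes a chromatin organiser that is abundant in thymocytes and naive T cells. Satb1 (ENSMUSG00000023927, minus strand of chr17:51736187-51833290) had the most reads of the 10 factors, at 966, 786, 747 and 807 CPM in cKO 2, 6, 7 and 8, against 975, 952, 748, 766 and 752 CPM in WT 1, 3, 4, 5 and 9. In cKO 2, WT 1 and WT 3 it lay well above the other 6 samples, so that each genotype held high and low values. The means were 827 CPM ± 96.3 (SD, n = 4) in cKO and 839 CPM ± 114 (SD, n = 5) in WT. The log2 difference was -0.02 (SE 0.10, edgeR adjusted p = 0.911) with a 95% interval of -0.24 to 0.20. Its sign changed without cKO 6 (0.0030), cKO 7 (0.025), WT 1 (0.039) or WT 3 (0.030).

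**Figure D2:**
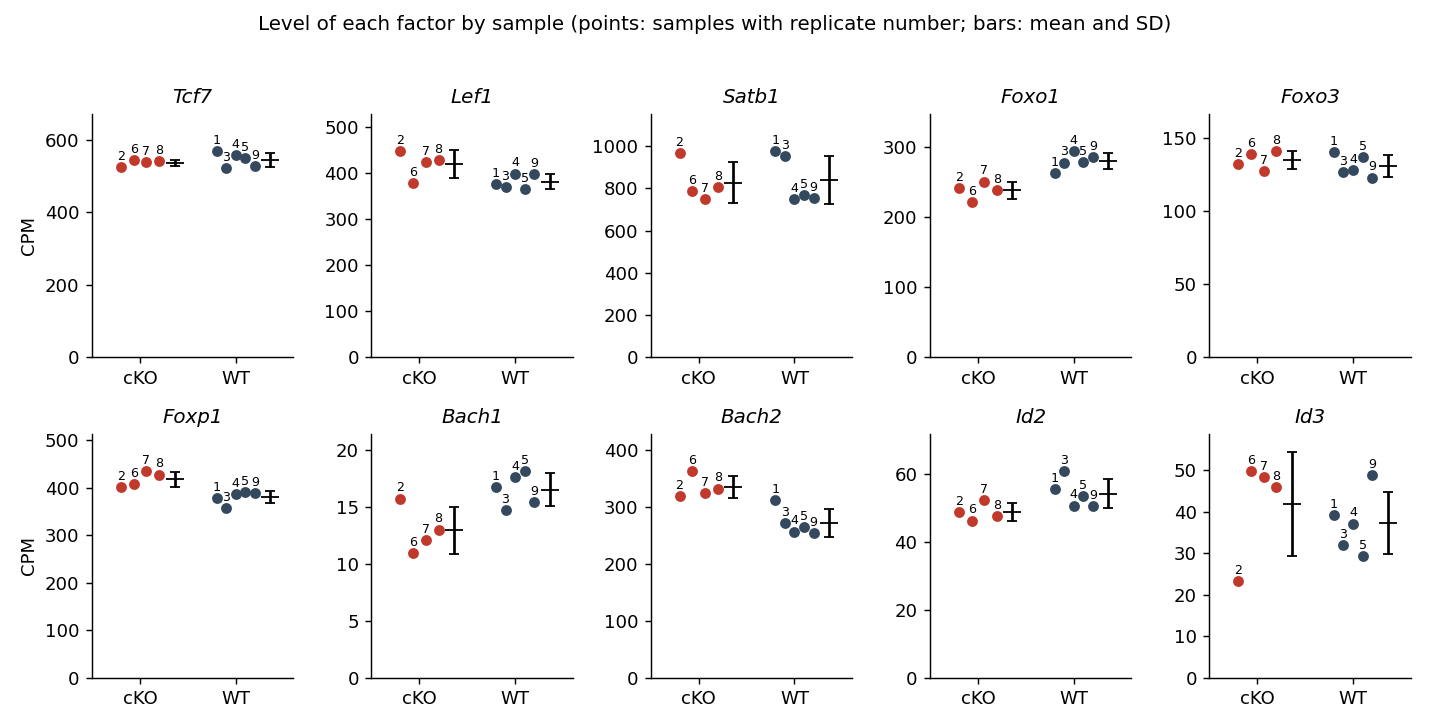
CPM of each of the 10 factors in every sample, cKO on the left and WT on the right of each panel, with the replicate number above each point and bars for mean and SD (n = 4 and 5); each vertical axis starts at 0. The groups separate for Foxo1, Foxp1 and Bach2, while Satb1 is high in cKO 2, WT 1 and WT 3 and Id3 is low in cKO 2.

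Among the forkhead factors, Foxo1 was lower in cKO, Foxp1 was higher and Foxo3 did not pass the test. The promoter window of each called factor is shown because the study deleted a histone demethylase that acts at promoters and enhancers. The windows span 250 bases before to 50 after a RefSeq transcription start on GRCm38.p6, with CpG pairs in capitals. That of Foxo1 is chr3:52268087-52268386 on the plus strand, and the outermost of 3 windows of Foxp1 is chr6:99520944-99521243 on the minus strand.
Foxo1: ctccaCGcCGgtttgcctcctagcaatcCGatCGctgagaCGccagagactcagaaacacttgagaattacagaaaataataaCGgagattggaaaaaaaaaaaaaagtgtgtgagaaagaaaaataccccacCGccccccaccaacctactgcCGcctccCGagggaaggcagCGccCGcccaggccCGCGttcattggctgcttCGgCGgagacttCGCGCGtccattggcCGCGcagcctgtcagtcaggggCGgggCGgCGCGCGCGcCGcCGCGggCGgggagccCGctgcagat
Foxp1: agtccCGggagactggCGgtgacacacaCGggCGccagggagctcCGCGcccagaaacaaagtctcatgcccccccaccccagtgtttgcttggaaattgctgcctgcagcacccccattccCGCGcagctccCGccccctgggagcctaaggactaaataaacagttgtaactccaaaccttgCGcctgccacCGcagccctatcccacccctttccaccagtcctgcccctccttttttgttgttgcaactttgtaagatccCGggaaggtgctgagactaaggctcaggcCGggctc
The Foxo1 window held 31 CpG pairs and the 3 windows of Foxp1 held 13 (the one shown), 5 and 44, beside a median of 7 over 32851 windows of 27025 genes. The forkhead motif GTAAACA, searched on both strands, was in none of these 4; it was in 3.65% of all windows.

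Foxo1 (ENSMUSG00000044167, plus strand of chr3:52268336-52353221) had 241, 222, 251 and 239 CPM in cKO 2, 6, 7 and 8, against 262, 278, 294, 279 and 285 CPM in WT 1, 3, 4, 5 and 9. Every cKO sample was below every WT sample, with cKO 7 and WT 1 nearest to each other. Foxo1 was at -0.23 in log2 (SE 0.04, edgeR adjusted p = 0.00623), and the fitted level fell by 14.9%. This call held in each of the 17 other settings and left-out samples, with adjusted p up to 0.0211 and log2 values from -0.26 to -0.19. Gm20402, an antisense gene whose exons overlap those of Foxo1, had 20.4, 20.5, 22.5 and 20.7 CPM in cKO 2, 6, 7 and 8 and 23.3, 25.8, 26.5, 24.6 and 29.6 CPM in WT 1, 3, 4, 5 and 9 (log2 -0.31, SE 0.07, edgeR adjusted p = 0.0139). The library kit keeps strand, but the strand setting of the counting is not stated. Reads in the exon parts that the 2 genes share therefore cannot be told apart, while reads elsewhere in Foxo1 are not affected by this overlap.

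Foxo3 encodes another FOXO factor that binds the same DNA element as FOXO1. Foxo3 (ENSMUSG00000048756, minus strand of chr10:42181841-42276755) had 132, 139, 127 and 141 CPM in cKO 2, 6, 7 and 8, against 140.2, 127, 128, 137 and 123 CPM in WT 1, 3, 4, 5 and 9. The ranges overlapped. Foxo3 differed by 0.04 in log2 (SE 0.05, edgeR adjusted p = 0.572), with a 95% interval of -0.06 to 0.15. The log2 ratio of Foxo1 to Foxo3 averaged 0.82 ± 0.13 in cKO (SD, n = 4) and 1.10 ± 0.13 in WT (SD, n = 5). The groups overlapped in this ratio only through cKO 7 at 0.98 and WT 1 at 0.91.

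Foxp1 (ENSMUSG00000030067, minus strand of chr6:98925338-99522721) had 401, 408, 434 and 428 CPM in cKO 2, 6, 7 and 8, against 378, 358, 387, 390.5 and 388 CPM in WT 1, 3, 4, 5 and 9. All 4 cKO values lay above all 5 WT values, by a gap that was narrower than the range within either group. Foxp1 rose by 0.14 in log2 (SE 0.04), a level 9.90% higher (edgeR adjusted p = 0.0320). The call was lost without cKO 6 (adjusted p = 0.0542), cKO 7 (0.0871), cKO 8 (0.0893), WT 3 (0.0651) or WT 4 (0.0529), and with no count filter (0.0549), while the log2 value stayed between 0.12 and 0.16. Gm20696, a gene on the same strand whose exons overlap Foxp1, was at 8.66 to 12.1 CPM in cKO and 10.5 to 12.6 CPM in WT (log2 -0.12, SE 0.10, edgeR adjusted p = 0.414).

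The BACH factors moved in opposite directions, with Bach2 higher and Bach1 lower in cKO. Both encode repressors that pair with small MAF proteins. BACH2 is the lymphocyte form that holds back effector genes, and BACH1 is released from DNA by heme and represses Hmox1 and other iron and redox genes. The single window of Bach2 is chr4:32417185-32417484 on the plus strand, at a start inside the gene as GENCODE draws it, and that of Bach1 is chr16:87698704-87699003 on the plus strand, with CpG pairs in capitals.
Bach2: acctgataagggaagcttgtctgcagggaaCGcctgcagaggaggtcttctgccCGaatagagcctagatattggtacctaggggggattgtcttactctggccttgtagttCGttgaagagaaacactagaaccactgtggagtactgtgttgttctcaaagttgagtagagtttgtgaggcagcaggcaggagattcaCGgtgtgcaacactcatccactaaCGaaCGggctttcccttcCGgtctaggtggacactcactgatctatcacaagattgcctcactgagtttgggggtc
Bach1: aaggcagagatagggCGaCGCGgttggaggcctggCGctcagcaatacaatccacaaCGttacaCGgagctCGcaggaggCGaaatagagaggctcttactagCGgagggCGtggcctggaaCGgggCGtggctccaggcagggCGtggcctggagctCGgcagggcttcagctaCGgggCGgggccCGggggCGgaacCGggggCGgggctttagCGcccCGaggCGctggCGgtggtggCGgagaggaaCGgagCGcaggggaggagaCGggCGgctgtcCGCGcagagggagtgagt
The Bach2 window held 7 CpG pairs, the median of all windows, and that of Bach1 held 31. The Bach2 window held the TCF/LEF motif CTTTGA, which 16.0% of all windows hold on one strand or the other. The BACH and AP-1 motif TGACTCA, present in 5.20% of all windows, was in none of the 20 windows of the 10 factors. Of those 20, which include up to 5 windows of 1 gene, 75% held more CpG pairs than the median window, as did 48.65% of all windows.

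Bach2 (ENSMUSG00000040270, plus strand of chr4:32238804-32586108) had 319, 362, 323 and 331 CPM in cKO 2, 6, 7 and 8, against 312, 271, 256, 264 and 253 CPM in WT 1, 3, 4, 5 and 9. Every cKO sample was above every WT sample, and WT 1 was the WT sample closest to them. Bach2 rose by 0.30 in log2 (SE 0.06), a level 23.1% higher (edgeR adjusted p = 0.00937). The call held in each of the 17 other settings and left-out samples, with adjusted p up to 0.0328 and log2 values from 0.24 to 0.36. Bach2os, an antisense gene whose exons overlap those of Bach2, had 21.0, 25.3, 22.2 and 22.0 CPM in cKO 2, 6, 7 and 8 and 22.4, 18.2, 16.3, 17.5 and 17.8 CPM in WT 1, 3, 4, 5 and 9. It was higher by 0.30 (SE 0.09, edgeR adjusted p = 0.0456), with overlap through WT 1. That call was lost when cKO 6, 7, 8, WT 3, 4, 5 or 9 was omitted (0.0761 to 0.142) and when 1 surrogate variable was fitted (0.0765). Reads in the exon parts that Bach2 and Bach2os share cannot be told apart where the strand setting is unknown.

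Bach1 (ENSMUSG00000025612, plus strand of chr16:87698945-87733346) was the least abundant of the 10 factors, with 251 to 431 counts per sample. Its level was 15.7, 10.9, 12.1 and 13.0 CPM in cKO 2, 6, 7 and 8, against 16.7, 14.7, 17.6, 18.1 and 15.4 CPM in WT 1, 3, 4, 5 and 9. In cKO 6, 7 and 8 it lay below every WT sample, and cKO 2 lay above WT 3 and WT 9. The log2 difference was -0.35 (SE 0.10, edgeR adjusted p = 0.0402), and the fitted level fell by 21.7%. The call was lost without cKO 6 (adjusted p = 0.120), cKO 7 (0.0962), cKO 8 (0.0881), WT 1 (0.0519), WT 4 (0.0877), WT 5 (0.0819) or WT 9 (0.0543), and with upper-quartile scaling (0.0502). Its log2 value stayed between -0.46 and -0.28 over all 17.

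Since Bach2 was higher and Bach1 lower, their ratio separated the genotypes. The log2 ratio of Bach2 to Bach1 was 4.35, 5.05, 4.74 and 4.68 in cKO 2, 6, 7 and 8, against 4.22, 4.20, 3.86, 3.87 and 4.04 in WT 1, 3, 4, 5 and 9. The lowest cKO value, in replicate 2, was just above the highest WT value, in replicate 1. The means were 4.70 ± 0.29 in cKO (SD, n = 4) and 4.04 ± 0.17 in WT (SD, n = 5), a difference of 0.67, given as a description because both genes were called on the same samples.

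**Figure D3:**
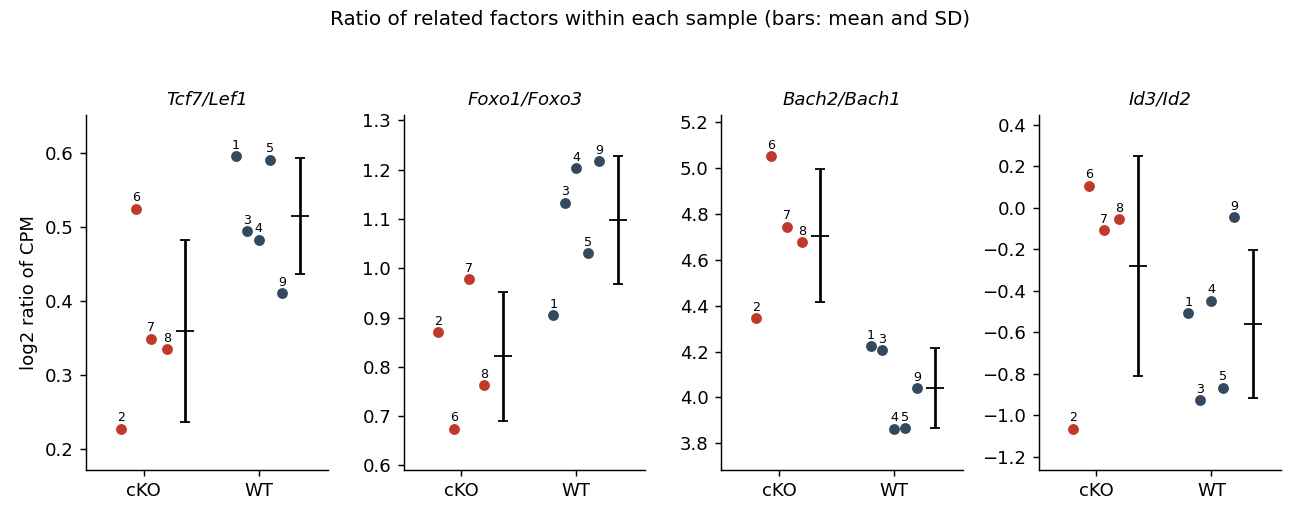
Log2 ratio of CPM within each sample for 4 pairs of related factors, cKO on the left and WT on the right, with replicate numbers and bars for mean and SD (n = 4 and 5); the vertical axes do not start at 0. Only the ratio of Bach2 to Bach1, averaging 4.70 in cKO and 4.04 in WT, has no overlap among these 4 pairs.

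Id2 and Id3 encode inhibitors of E proteins; in mouse T cells Id2 is linked to effector and Id3 to long-lived memory fates. Id2 (ENSMUSG00000020644, minus strand of chr12:25093799-25097140) had 48.8, 46.2, 52.2 and 47.6 CPM in cKO 2, 6, 7 and 8, against 55.5, 60.7, 50.6, 53.4 and 50.5 CPM in WT 1, 3, 4, 5 and 9. In cKO 2, 6 and 8 the level was below every WT sample, and cKO 7 fell within the WT range. Id2 differed by -0.15 in log2 (SE 0.06), which did not pass (edgeR adjusted p = 0.107, unadjusted p = 0.0260) in this or any of the 17 other settings, where adjusted p was at least 0.0741.

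Id3 (ENSMUSG00000007872, plus strand of chr4:136143497-136145755) was the most variable of the factors, at 23.3, 49.7, 48.4 and 45.8 CPM in cKO 2, 6, 7 and 8, against 39.1, 32.0, 37.1, 29.3 and 48.9 CPM in WT 1, 3, 4, 5 and 9. The value of cKO 2 was below all other samples. Those of cKO 7 and 8 were above 4 of the 5 WT samples, and that of cKO 6 was above all 5. Its coefficient of variation was 29.7% in cKO and 20.3% in WT, against 1.64% in cKO and 3.64% in WT for Tcf7. The log2 difference was 0.16 (SE 0.20, edgeR adjusted p = 0.631), with a wide 95% interval of -0.29 to 0.61. Without cKO 2 the log2 value was 0.36 and still did not pass (adjusted p = 0.0967).

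Per annotated exon length, a rough way to compare genes, Tcf7 was the most abundant of the 10 factors and Bach1 the least. Levels were divided by the union of GENCODE exons and are given as CPM per kilobase. That union takes in all annotated transcripts, 2625 bases for Tcf7 and 19027 for Satb1. The transcripts in use may be shorter, so the order between genes depends on the annotation. Before division, Satb1 averaged 833 CPM over all samples and Tcf7 541 CPM. Tcf7 averaged 204 ± 3.34 in cKO and 207 ± 7.54 in WT (SD, n = 4 and 5), far above the next factor. Bach1 averaged 2.09 ± 0.331 in cKO and 2.67 ± 0.233 in WT.

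Between these ends, the order in cKO was Lef1 (47.6), Satb1 (43.4), Bach2 (33.6), Foxp1 (30.4), Foxo1 (27.5), Id3 (23.3), Id2 (19.97) and Foxo3 (17.8), as mean CPM per kilobase. Of these neighbours, Lef1 and Satb1, Foxo1 and Id3, and Id3 and Id2 overlapped in cKO. The order in WT was Satb1 (44.1), Lef1 (43.3), Foxo1 (32.3), Foxp1 (27.6), Bach2 (27.3), Id2 (22.2), Id3 (20.8) and Foxo3 (17.3). In WT the overlapping neighbours were Satb1 and Lef1, Foxp1 and Bach2, Id2 and Id3, and Id3 and Foxo3. Foxo1 thus ranked below Bach2 and Foxp1 in cKO and above both in WT, without overlap between Foxo1 and Foxp1 in either genotype. Foxo1 and Bach2 did overlap in WT, where the highest Bach2 value was 31.4 and the lowest Foxo1 value 30.3.

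**Figure D4:**
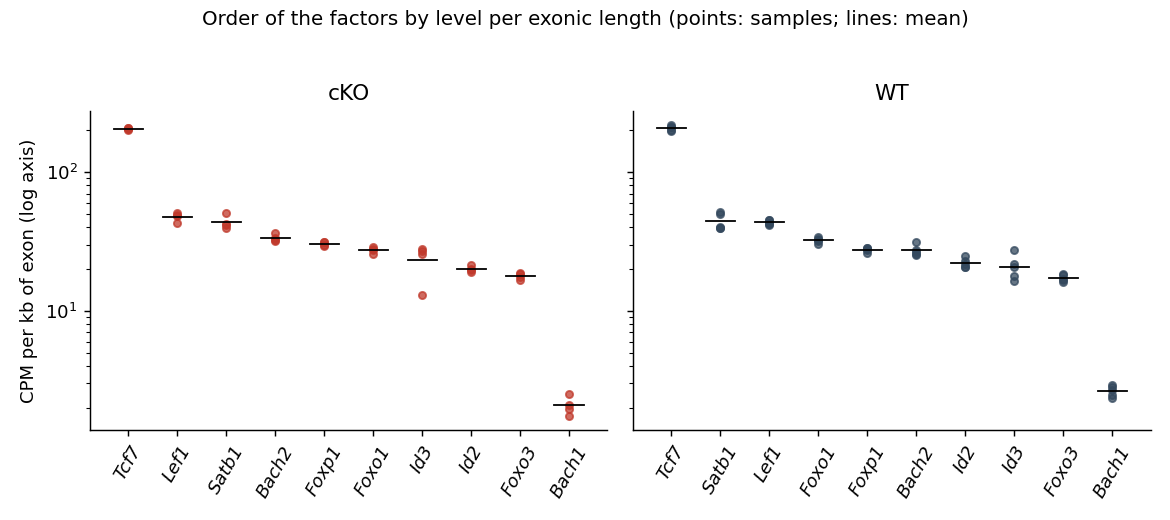
CPM per kilobase of exon on a log axis for the 10 factors, ordered by mean within cKO (left) and within WT (right); points are samples (4 cKO, 5 WT) and lines are means. Tcf7 stands at 204 in cKO and 207 in WT, Bach1 at 2.09 in cKO and 2.67 in WT, and Foxo1 ranks 6 in cKO and 4 in WT.

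The partners and regulated genes of these factors were read from the same fit, as lists described by counts beside 7% of all genes higher and 8.82% lower. Of 16 tested relatives and partners of TCF1 and LEF1, 2 were higher, 2 were lower and 12 did not pass, with a median log2 difference of -0.04. Tle5, a short Groucho family protein that lacks the WD repeats of its relatives, was at 330.1 CPM ± 25.2 (SD, n = 4) in cKO and 409 CPM ± 29.0 (SD, n = 5) in WT (log2 -0.31, SE 0.06, edgeR adjusted p = 0.00779). Axin2, a feedback inhibitor induced by beta-catenin with TCF factors, had 17.0, 19.8, 21.7 and 17.4 CPM in cKO 2, 6, 7 and 8, against 20.9, 26.8, 31.4, 24.2 and 29.8 CPM in WT 1, 3, 4, 5 and 9. Axin2 fell by 0.49 in log2 (SE 0.12, edgeR adjusted p = 0.0176), with overlap of cKO 7 and WT 1. Apc, the scaffold that helps destroy beta-catenin, was higher by 0.16 (SE 0.04, edgeR adjusted p = 0.0233), and Ctnnbip1, which keeps beta-catenin from TCF factors, by 0.33 (SE 0.10, adjusted p = 0.0493). Ctnnb1, the gene of beta-catenin itself, was at 339 CPM ± 6.14 in cKO and 348 CPM ± 10.4 in WT (adjusted p = 0.465).

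Among these calls, Tle5 held in all 17 other settings and left-out samples. Axin2 was lost without cKO 8 (adjusted p = 0.0563), and Apc without cKO 6, cKO 7, WT 3 or WT 4 (0.0529 to 0.0734). Ctnnbip1 was lost in 11 of 17, namely on omission of each cKO sample or of WT 1, 3, 4 or 5, with no count filter, in DESeq2 and with robust quasi-likelihood (0.0520 to 0.132).

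Of 12 tested forkhead relatives among 14 listed, 1 was lower, 0 were higher and 11 did not pass in edgeR, with a median of -0.0006. At unadjusted p under 0.05, 1 was higher and 2 lower, DESeq2 called 1 higher and 2 lower, and limma-voom 0 and 1. The 1 that was lower was Foxo4, another FOXO gene, at 31.1, 28.6, 30.6 and 33.0 CPM in cKO 2, 6, 7 and 8, against 32.8, 38.1, 40.5, 36.5 and 40.7 CPM in WT 1, 3, 4, 5 and 9. Foxo4 fell by 0.29 in log2 (SE 0.07, edgeR adjusted p = 0.0162), with WT 1 just inside the cKO range, and its call was lost without cKO 6 (0.0551). Foxk1 and Foxk2, the most abundant relatives, were at -0.07 (SE 0.04, adjusted p = 0.288) and 0.09 (SE 0.03, adjusted p = 0.0641).

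Of 17 genes known to be regulated by FOXO factors, 4 were lower, 1 was higher and 12 did not pass, and the median log2 difference was -0.07. Il7r, the IL-7 receptor chain that FOXO1 turns on in T cells, had 47.0, 29.7, 38.6 and 30.5 CPM in cKO 2, 6, 7 and 8, against 46.8, 57.4, 65.7, 56.8 and 48.6 CPM in WT 1, 3, 4, 5 and 9 (log2 -0.59, SE 0.14, edgeR adjusted p = 0.0160). It lay below every WT sample in cKO 6, 7 and 8 and just above WT 1 in cKO 2. Klf2, which FOXO1 induces, fell by 0.78 (SE 0.22, adjusted p = 0.0371), and S1pr1, which KLF2 induces, fell by 0.83 (SE 0.23, adjusted p = 0.0295), with overlap of the genotypes in both. Bcl2l11, which encodes the death factor BIM, fell by 0.20 (SE 0.05, adjusted p = 0.0243). Gabarapl1, an autophagy gene, had 30.2, 31.5, 28.9 and 30.6 CPM in cKO 2, 6, 7 and 8, against 27.1, 22.1, 21.1, 21.2 and 22.5 CPM in WT 1, 3, 4, 5 and 9. It was higher by 0.41 (SE 0.07, adjusted p = 0.00452).

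The Gabarapl1 call held in all 17 other settings, but the number of lower genes in this list changed when single libraries were left out. It was 0 without cKO 8, 1 without cKO 6, WT 4 or WT 9, 2 without cKO 2 or WT 5, and 6 without WT 1. Lower calls over all genes, 1296 in the main fit, changed as well. They numbered 872 without cKO 8, 732 without cKO 6, 877 without WT 4 and 920 without WT 9. The same count was 1202 without cKO 2, 1132 without WT 5 and 1570 without WT 1. Il7r lost its call without cKO 6 or cKO 8 (edgeR adjusted p = 0.0509 and 0.0516). Klf2 lost it without cKO 2, 6, 7 or 8 or WT 4, 5 or 9, in limma-voom and with robust quasi-likelihood (0.0509 to 0.108). S1pr1 lost it without cKO 2, 6 or 8 or WT 4 or 9 and with robust quasi-likelihood (0.0594 to 0.0882). With 1 surrogate variable the log2 value was -0.45 for Klf2 and -0.51 for S1pr1. Bcl2l11 lost it without cKO 2 or 8 or WT 4, 5 or 9 (0.0510 to 0.0720).

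**Figure D5:**
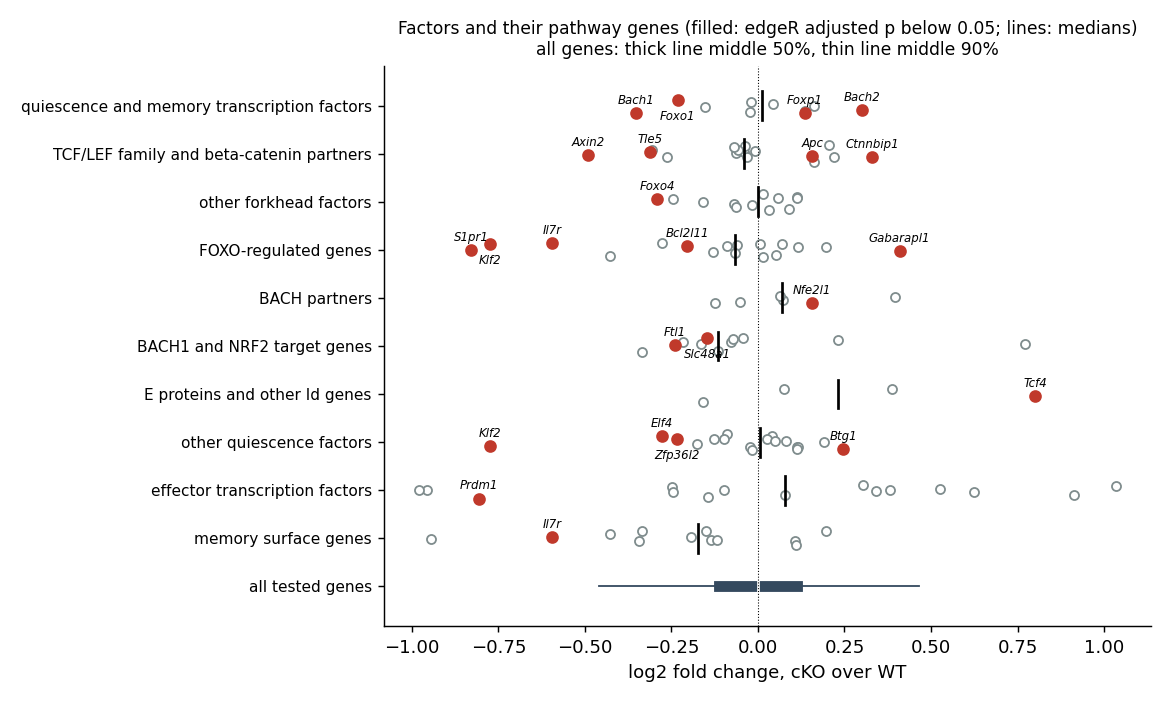
Log2 fold change, cKO over WT, of each tested gene in the set of 10 factors and in 9 lists of their partners, regulated genes and T cell state genes; filled points have an edgeR adjusted p below 0.05, short black lines are list medians, and the bar at the bottom spans the middle 50% (thick) and 90% (thin) of all 14693 genes. The list medians run from -0.17 for memory surface genes to 0.23 for E proteins and other Id genes, and calls of both signs occur in 3 of the 9 lists.

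Of 6 tested partners and competitors of BACH factors among 7 listed, 1 was higher, 0 were lower and 5 did not pass in edgeR. Unadjusted p was under 0.05 for 1 lower gene, and DESeq2 and limma-voom each called 1 higher gene and 0 lower. The higher gene was Nfe2l1, an NRF factor that binds the same elements, at 148, 163, 149 and 148 CPM in cKO 2, 6, 7 and 8, against 143, 143, 129, 135 and 132 CPM in WT 1, 3, 4, 5 and 9 (log2 0.16, SE 0.05, edgeR adjusted p = 0.0372). The genotypes did not overlap for Nfe2l1, but its call was lost in 8 of 17, without cKO 6, 7 or 8 or WT 4, 5 or 9, without a count filter, and when 1 surrogate variable was fitted (0.0513 to 0.115). Keap1, which marks NRF2 for degradation, was at -0.05 (SE 0.04, adjusted p = 0.390).

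Of 11 heme, iron and redox genes under BACH1 and NRF2, 2 were lower, 0 were higher and 9 did not pass in edgeR, with a median of -0.11; DESeq2 called 3 lower and 0 higher, limma-voom 2 and 0, and at unadjusted p under 0.05 there were 5 lower and 1 higher. Hmox1, the best known target of BACH1 and named here for that reason, was at 3.79 CPM in cKO and 3.24 CPM in WT (adjusted p = 0.397). Ftl1, the ferritin light chain, fell by 0.24 (SE 0.04, edgeR adjusted p = 0.00487) and held in all 17 other settings. Slc48a1, a heme transporter, fell by 0.15 (SE 0.04, adjusted p = 0.0352), a call lost in 9 of 17, without cKO 6, 7 or 8 or WT 3, 4, 5 or 9, under upper-quartile scaling and in the absence of a count filter (0.0553 to 0.110).

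Of 4 tested E protein and other Id genes among 5 listed, 1 was higher and 3 did not pass in edgeR. Its count of lower genes was 0, as it was by DESeq2 and by limma-voom, with 1 at unadjusted p under 0.05. The higher gene, Tcf4, encodes the E protein E2-2 and is not the TCF/LEF factor of similar name. Tcf4 had 13.2, 12.8, 12.7 and 12.5 CPM in cKO 2, 6, 7 and 8, against 7.83, 6.91, 7.19, 8.40 and 6.41 CPM in WT 1, 3, 4, 5 and 9. All 4 cKO samples lay within 1 CPM of each other and above every WT sample (log2 0.80, SE 0.08, edgeR adjusted p = 0.000252). The call held in all 17 other settings. The more abundant E protein genes were at -0.16 (SE 0.06, adjusted p = 0.112) for Tcf3, which encodes E2A, and 0.08 (SE 0.03, adjusted p = 0.122) for Tcf12, which encodes HEB. Without WT 1, Tcf3 was called lower at -0.19 (0.0431), and the list then had 2 higher genes. Over all genes, that omission gave 1363 higher and 1570 lower, against 1028 and 1296 with all samples.

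Of 18 other genes that restrain growth of resting T cells, 3 were lower, 1 was higher and 14 did not pass, with a median of 0.005. Elf4, an ETS factor that limits T cell proliferation, fell by 0.28 (SE 0.04, edgeR adjusted p = 0.00223), and Zfp36l2, an RNA-binding protein that destabilises messages, fell by 0.23 (SE 0.05, adjusted p = 0.0158). Klf2, also on the FOXO list, was the other lower gene. Btg1, an antiproliferative factor of quiescent lymphocytes, was higher by 0.25 (SE 0.06, adjusted p = 0.0146). The calls of Elf4, Zfp36l2 and Btg1 held in all 17 other settings. Without WT 1, 3 genes of the list were higher, and over all genes 1363 were, against 1028 with all samples.

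Of 15 transcription factors of activated and effector T cells, 1 was lower, 0 were higher and 14 did not pass in edgeR. The median log2 difference was 0.08, but the median absolute difference was 0.38, against 0.11 over all genes. Values ran from -0.98 to 1.03, the highest being that of Tbx21 (edgeR adjusted p = 0.134). The unadjusted p was under 0.05 for 4 higher and 3 lower, DESeq2 called 1 higher and 2 lower, and limma-voom 0 and 1. Prdm1, which encodes BLIMP1 and whose transcription BACH2 represses, had 9.83, 4.93, 3.94 and 7.65 CPM in cKO 2, 6, 7 and 8, against 10.8, 13.8, 11.4, 13.9 and 8.02 CPM in WT 1, 3, 4, 5 and 9. Prdm1 fell by 0.81 in log2 (SE 0.24, edgeR adjusted p = 0.0448), with cKO 2 above WT 9. Its call was lost in 7 of 17, without cKO 6, 7 or 8 or WT 3, 4 or 5 and with robust quasi-likelihood (0.0733 to 0.131). Without WT 1, 4 genes of the list were higher, while higher calls over all genes rose from 1028 to 1363. Of 12 surface and survival genes of naive and memory cells, Il7r was the 1 that passed as lower in edgeR, 0 were higher and the median was -0.17; at unadjusted p under 0.05 there were 5 lower and 1 higher, and DESeq2 and limma-voom each called 2 lower and 0 higher. Without cKO 2, 4 of these 12 were lower, and without cKO 8, 0. Over all genes, lower calls numbered 1202 without cKO 2 and 872 without cKO 8, against 1296 with all samples.

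The genes whose profile over the 9 samples lay nearest to each called factor were found by the root mean square difference of centred log2 CPM, among 9480 genes of at least 10 CPM. For Foxo1 they were Rpa1, a subunit of the single-stranded DNA binding protein RPA, at 0.019, and Itm2b, a membrane protein gene, at 0.020, where Foxo1 itself varied by 0.13. For Bach2 they were Csnk1g1, a casein kinase, at 0.021, and Pfdn2, a prefoldin subunit, at 0.036, beside 0.18 for Bach2 itself. For Foxp1 they were Srpk2, a kinase of splicing factors, at 0.027, and Pnpla6, a phospholipase, at 0.031, beside 0.082 for Foxp1. For Bach1 the nearest, C920009B18Rik and the lysosomal sulfatase gene Galns, were farther off at 0.072 and 0.083, beside 0.24 for Bach1.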

How the data were processed

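RNA was measured in 9 samples, 4 cKO and 5 WT. Direct-zol purified RNA went into strand-selected KAPA libraries of enriched mRNA, per the labels' protocols. What the authors deposited is a single table of unnormalized counts, and 0 of its columns belonged to no sample. Per the submitters' processing notes, bcl2fastq 2.17 and the build mm10 were used. The aligner, counter, annotation and strand setting were not given in the sources used here. Columns were matched to samples by title. The members and lists were chosen with earlier results of these data known.

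All genes were tested together in edgeR 4.0.16 under R 4.3.3 by its quasi-likelihood F test (TMM, filterByExpr, no covariate, two-sided), adjusted by Benjamini-Hochberg over 14693 genes. At these depths 1 CPM is more than 20 counts. Log2 CPM used a prior count of 2. Symbols, positions and exon lengths came from GENCODE and promoter windows from RefSeq, both on GRCm38; Tle5 was matched through its older symbol Aes, and the marker Trdc had no matching ID. Samples of the same genotype differed by more than sampling noise (chi-square per gene 3.34 to 20.3). Named genes were the 10 factors, Kdm6a and up to 4 called genes per list by adjusted p. The 2 most abundant genes of each family list and the 2 nearest profiles of each called factor were named as well. Hmox1, Tbx21, Cd4 and the markers Thy1, Foxp3, Ikzf2, Il2ra and Pecam1 were added by choice. Antisense and overlapping genes with shared exons were also read. Other settings were upper-quartile scaling, DESeq2 size factors, 2 other count filters, DESeq2 1.42.0, limma-voom 3.58.1, 1 surrogate variable from sva 3.50.0, robust quasi-likelihood and leaving out each sample. The test was also run on simulated counts, drawn independently for each gene and sample. That run had no shifts shared by many genes of a sample and does not show how the test behaves under them.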

Additional observations from a re-analysis of the deposited data

Results flagged for a closer look

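Within each genotype, 120 sets of values (named genes and marker sums) were examined for a sample whose gap to its nearest neighbour exceeds Dixon's 95% limit, and 9 such samples were found. Chance gives about 1 in 20 sets.

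Of the 10 factors, Id3 had 1 such sample. Id3 in cKO 2 was at 23.3 CPM, while the other cKO samples were at 45.8 to 49.7 CPM.

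Among partner and overlapping genes there were 5. Ctnnb1 in cKO 7 was at 348 CPM, with the next cKO sample at 336 CPM. Nfe2l1 in cKO 6 was at 163 CPM, with the next cKO sample at 149 CPM. Gm20402, antisense to Foxo1, was at 22.5 CPM in cKO 7, with the next cKO sample at 20.7 CPM. Gabarapl1 in WT 1 was at 27.1 CPM, above the next WT sample at 22.5 CPM and nearest to the cKO values. Keap1 in WT 1 was at 118 CPM, below the next WT sample at 121 CPM.

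Among marker sums there were 3. The sum of CD4 T cell markers in cKO 6 was 3211 CPM, with the next cKO sample at 3549 CPM. That of B cell markers in cKO 8 was 2.95 CPM, with the next cKO sample at 4.22 CPM. That of dendritic cell markers in cKO 7 was 2.74 CPM, with the next cKO sample at 3.60 CPM.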

How the results depend on the processing

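Of 170 values of the 10 factors under 17 alternatives, 150 kept their direction and side of the threshold, 14 lost the call, 2 gained it and 4 changed sign. The 4 were all of Satb1, at 0.0030 without cKO 6, 0.025 without cKO 7, 0.039 without WT 1 and 0.030 without WT 3, within -0.10 to 0.039 over all omissions. Foxo1 and Bach2 kept their calls throughout. With 1 sample left out, 1 to 2 factors were higher and 1 to 2 lower. No count filter gave 1 higher and upper-quartile scaling 1 lower. Across all genes, leaving out 1 sample gave 531 to 1363 higher and 732 to 1570 lower, with the lowest counts without cKO 6 and the highest without WT 1. Upper-quartile scaling called 1265 higher and 1068 lower, 54.2% higher against 44.2% with TMM. In the 9 partner and state lists together, 6 genes were higher and 12 lower, against 3 to 12 higher and 6 to 17 lower with 1 sample left out, and 19 lower with 1 surrogate variable. The difference in mitochondrial share, 0.214 percentage points, ran from 0.171 to 0.270. It missed exact permutation p 0.05 in the 7 of 9 omissions that kept both cKO 2 and WT 9, whose shares overlap the other genotype. With 1 sample left out that test passes only on full separation, so these misses do not measure how stable the difference is. No paired analysis was possible because the labels give no pairing of cKO with WT samples. The cause of these shifts was not tested. Depth limits Bach1 most, at 251 to 431 counts per sample.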
